A study of Mus musculus with 20 samples.

Results

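T cell acute lymphoblastic leukaemia (T-ALL) was set against thymus grafts taken at 10 weeks, on 11 of the 20 arrays of a mouse expression study that also covered normal thymus. The arrays were chosen by label alone. They were the 7 labelled T-ALL, without those marked T-ALL_Rag-, and the 4 labelled as grafts at 10 weeks. All were of strain F1(WB x B6/Ly5.1), and no other allele, treatment or age was given. The T-ALL arrays were marked as a re-analysis, and the grafts were described as autonomous thymus. Array numbers only name the arrays. T-ALL 1 to 3 and grafts 1 and 2 lay on the first chip, T-ALL 4 to 6 and grafts 3 and 4 on the second, and T-ALL 7 on another chip with no graft. RNA came from single cell suspensions or sorted cells, without a statement of which array was which. Whether the arrays of a group were separate mice, and the genotype of the graft hosts, are not stated in the sources used here. P-values therefore measure spread among arrays, some of which may be technical.

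A thymus is normally reseeded by progenitors from the bone marrow. In autonomous thymopoiesis, a graft in a host whose own progenitors cannot compete keeps producing T cells from its own thymocytes, and such grafts can later give rise to T-ALL. Developing thymocytes pass from a CD4 and CD8 double-negative stage, in which Notch1 and the pre-T-cell receptor drive division, to a largely resting double-positive stage that rearranges the T cell receptor (TCR) alpha chain and is tested by TCR signals. T-ALL of mouse and human commonly carries activating Notch1 mutations, and Notch and Myc promote growth and DNA synthesis in these cells.

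Values were log2 intensities, quantile normalised before deposit, and each gene was read from its brightest probe. A probe counted as above background over 7.12. Of all named genes, 10533 were above background on at least 4 of the 11 arrays and were tested with limma. Differences are T-ALL minus graft on the log2 scale, and rose and fell are used of T-ALL for genes with an adjusted p below 0.05. The thymocyte marker Thy1 was bright on every array, at 14.59 to 14.80 on T-ALL arrays and 14.91, 14.91, 14.72 and 15.06 on grafts 1 to 4, and so was Cd3e, a chain of the TCR complex, at 12.94 to 13.85 on T-ALL arrays and 14.24, 13.90, 13.15 and 14.34 on grafts 1 to 4. Both groups thus held abundant T lineage RNA.

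The grafts were unlike each other. Among the 11 arrays graft 3 was nearest to T-ALL 3 (r = 0.976 across genes), and it correlated with grafts 1, 2 and 4 at 0.893, 0.917 and 0.889. Between graft 3 and those grafts 1616, 1402 and 1665 genes differed at least 2-fold, against 233 between graft 3 and T-ALL 3. Grafts 1 and 4, on different chips, were almost the same (r = 0.993). Between them 10 of 10533 genes differed at least 2-fold, against 268 to 1359 genes between any 2 T-ALL arrays. Whether grafts 1 and 4 came from separate mice was not given. Among the 11 arrays graft 2 was nearest to T-ALL 4 (r = 0.955). Results are therefore given with and without graft 3, and counts also with grafts 1 and 4 averaged as 1 array, a step added after these values were seen.

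**Figure D1:**
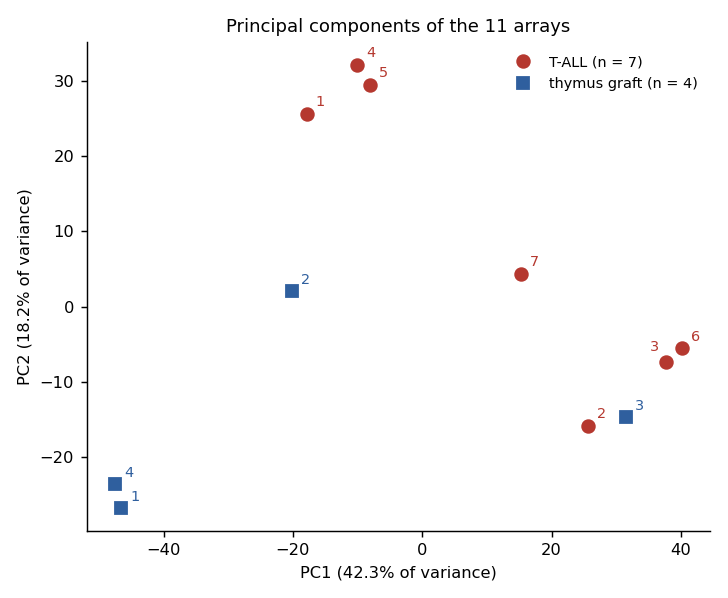
First (horizontal) and second (vertical) principal component scores of the 11 arrays, with the share of variance on each axis. T-ALL arrays are circles, grafts are squares, and digits are array numbers within a group. Grafts 1 and 4 lie side by side at the lower left, and graft 3 lies with T-ALL 2, 3 and 6 at the right.

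With all 4 grafts, 27 of 10533 genes changed (0.256% of those tested), 9 higher (0.0854%) and 18 lower (0.171%) in T-ALL. The largest falls were in Fgf13, an intracellular fibroblast growth factor homologue, Smoc1, a secreted matrix protein, and Hmgn3, a nucleosome-binding protein. The largest rises were in Fbln1, the matrix protein fibulin-1, and Jdp2, a repressor of AP-1. No T-ALL array overlapped with a graft in any of the 27, as was so in 282 genes over all (2.68%), and 2010 genes had an unadjusted p below 0.05.

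In Fgf13 all grafts were close together. It read 6.88 to 9.01 on T-ALL arrays, with a median of 7.10, against 10.71, 10.62, 10.67 and 10.64 on grafts 1 to 4. Graft 3 lay with the other grafts, and T-ALL 5 was the highest leukaemia array. The difference was -3.26 (SE 0.35, limma adjusted p = 0.00693). Of the 7 T-ALL arrays 3 were above background for Fgf13, and with dimmer values set to the threshold it fell 9.17-fold. Samd9l, an interferon-inducible inhibitor of cell growth, behaved likewise, at 7.87 to 9.00 on T-ALL arrays and 9.87, 10.13, 9.85 and 9.59 on grafts 1 to 4. It fell 3.14-fold (adjusted p = 0.0164). Tet2, an enzyme that oxidises methylcytosine, was at 6.86 to 7.66 on T-ALL arrays and 8.32, 8.00, 8.29 and 8.00 on grafts 1 to 4 (adjusted p = 0.0186). On T-ALL arrays it was above background in 4 of 7 cases, and it fell 1.89-fold with dimmer values set to the threshold.

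In Smoc1, Hmgn3 and Cdk5r1 graft 3 was the lowest graft without reaching T-ALL. Smoc1 was at 6.92 to 8.04 on T-ALL arrays and 10.79, 9.30, 8.81 and 10.20 on grafts 1 to 4 (difference -2.46, SE 0.37). Hmgn3 was at 6.83 to 7.79 on T-ALL arrays and 9.96, 9.52, 8.40 and 10.25 on grafts 1 to 4 (difference -2.27, SE 0.32). Cdk5r1, which switches on the kinase Cdk5, was at 7.41 to 8.81 on T-ALL arrays and 10.28, 9.84, 9.49 and 9.97 on grafts 1 to 4 (difference -1.89, SE 0.29). Of the 7 T-ALL arrays 3 were above background for Smoc1 and 4 for Hmgn3. Cytip, which restrains leukocyte adhesion, fell 3.03-fold, Dgkd, a diacylglycerol kinase that dampens receptor signals, 2.56-fold, and Nfkbiz, a nuclear regulator of NF-kB target genes, 2.27-fold with 1 dim array set to the threshold. Tagap, a GTPase activator induced in activated T cells, fell 2.12-fold and Birc2, an inhibitor of apoptosis, 1.88-fold. Zfp28 and Zfp518b are zinc finger proteins. Zfp28 was not above background on any T-ALL array and was at least 1.77-fold lower, and Zfp518b, above background on 1, differed by -0.96. Adjusted p-values of the genes in this paragraph lay between 0.0164 and 0.0478 (limma).

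Fbln1 read 11.33 to 12.21 on T-ALL arrays, with a median of 11.99, against 8.12, 8.18, 10.89 and 7.81 on grafts 1 to 4. Graft 3 stood between the groups. Fbln1 rose by 3.13 (SE 0.48, adjusted p = 0.0219), and by 3.85 (SE 0.21, adjusted p = 8.3e-06) without graft 3. Jdp2 was low on every graft, at 7.97 to 9.62 on T-ALL arrays and 7.34, 7.28, 7.37 and 7.25 on grafts 1 to 4, and rose 2.99-fold. Cdk4, the kinase that drives entry into the cell cycle, was at 11.92 to 12.45 on T-ALL arrays and 10.88, 11.12, 11.39 and 11.06 on grafts 1 to 4, and rose 1.96-fold. Rpa2, a subunit of the single-strand DNA binding complex, rose 1.82-fold, Prmt1, an arginine methyltransferase, 1.83-fold, and Sumo3, a ubiquitin-like modifier, 2.33-fold. Tmem106c, a membrane protein, rose 2.28-fold, Adh5, which clears formaldehyde, 1.85-fold, and Gm8416, a predicted gene, 2.09-fold. Adjusted p-values of these rises after Fbln1 lay between 0.0164 and 0.0478 (limma).

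**Figure D2:**
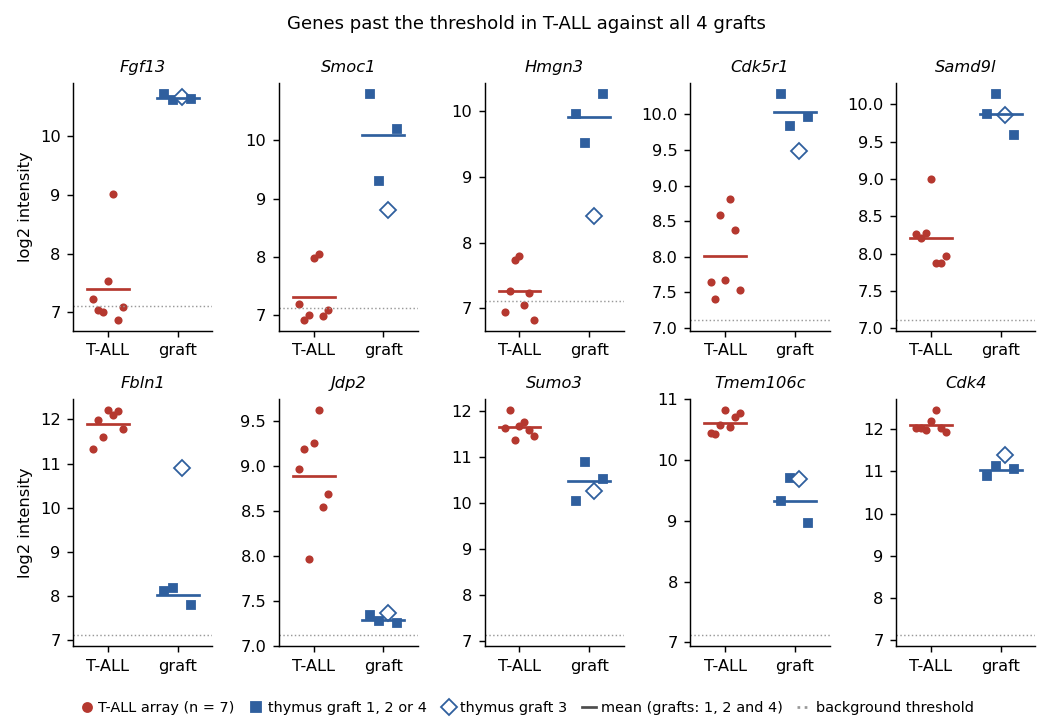
Log2 intensity (vertical axes) of 10 of the 27 genes that changed, with T-ALL arrays as circles at the left of each panel and grafts at the right. The open diamond is graft 3, bars are means (grafts without graft 3), and the dotted line is the background threshold of 7.12. Graft 3 sits with the other grafts in Fgf13, Samd9l and Jdp2, and between the groups in Fbln1.

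None of the 27 calls held with grafts 1 and 4 averaged as 1 array, where limma called 0 genes (0% of those tested; 1118 at an unadjusted p below 0.05) and Fgf13 had adjusted p = 0.0528, or with chip as a block (0 genes, 1695 at an unadjusted p below 0.05). All 27 kept their direction in both, which their lack of overlap between T-ALL arrays and grafts fixed in advance.

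Without graft 3 many more genes passed. Of the 10533 genes 1149 changed (10.9%), 509 higher (4.83%) and 640 lower (6.08%), and all 27 genes above were among them. T-ALL arrays and grafts had no overlap in 1531 genes (14.5%). With grafts 1 and 4 averaged as well, 190 of these genes passed (1.80% of those tested), 76 higher (0.722%) and 114 lower (1.08%), and with chip as a block 622 genes passed. Many genes of DNA replication, nucleotide synthesis and ribosome biogenesis rose, and many induced by TCR signals or typical of double-positive thymocytes fell, with the counts given below. In most of them graft 3 read as T-ALL did.

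DNA replication genes shared 1 direction. All 29 measured members were higher in T-ALL than in grafts, with all 4 grafts (median difference 0.59) and without graft 3 (0.89), against medians of 0.01 and 0.02 over all genes tested. Over all genes tested 52.2% were higher in T-ALL with all 4 grafts, beside which counts of higher members are to be read. Counts of members that passed are to be read beside 10.9% without graft 3 and 1.80% with grafts 1 and 4 averaged as well. None of the 29 passed with all 4 grafts. Without graft 3, 24 of 29 rose and none fell, and 7 did with grafts 1 and 4 averaged. Mcm5, a subunit of the replicative helicase, read 13.06 to 13.63 on T-ALL arrays, with a median of 13.19, against 12.42, 12.49, 13.68 and 12.23 on grafts 1 to 4. Grafts 1, 2 and 4 lay below every T-ALL array and graft 3 above all of them. Mcm5 rose by 0.92 without graft 3 (SE 0.13, adjusted p = 0.00323), and its difference with all 4 grafts was 0.59 (adjusted p = 0.202). Mcm10, which acts with the helicase at firing origins, had a median of 11.37 on T-ALL arrays and was at 10.27, 10.15, 12.02 and 10.20 on grafts 1 to 4. It rose by 1.25 without graft 3. Chaf1b, a histone chaperone of new DNA, rose by 1.41, Gins2, another helicase component, by 1.29, and Tk1, thymidine kinase, by 1.20. Mcm5 and Mcm10 passed with grafts 1 and 4 averaged, and Chaf1b, Gins2 and Tk1 did not (limma adjusted p = 0.101, 0.0690 and 0.0913).

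Replication genes are known targets of E2F, and its letters were sought in the 250 bases before the start of each gene in RefSeq promoter windows (GRCm38.p6), where 25 of the 29 had an entry. The letters TTTCCCGC or TTTGGCGC, on either strand, occurred in 4 of these 25 (16% of them, against 1.51% of 27025 genes). Those 4 are shown because they are the replication genes that hold the letters, which are in capitals. All read 5′ to 3′ on the strand of the gene and end just before its start.
Mcm5, chr8:75109259-75109508, plus strand: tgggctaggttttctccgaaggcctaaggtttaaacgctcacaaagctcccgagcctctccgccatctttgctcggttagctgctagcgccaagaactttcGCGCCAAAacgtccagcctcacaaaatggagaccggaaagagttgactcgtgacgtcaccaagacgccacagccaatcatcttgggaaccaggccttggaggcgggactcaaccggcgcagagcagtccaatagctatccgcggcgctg
Mcm6, chr1:128359706-128359955, minus strand: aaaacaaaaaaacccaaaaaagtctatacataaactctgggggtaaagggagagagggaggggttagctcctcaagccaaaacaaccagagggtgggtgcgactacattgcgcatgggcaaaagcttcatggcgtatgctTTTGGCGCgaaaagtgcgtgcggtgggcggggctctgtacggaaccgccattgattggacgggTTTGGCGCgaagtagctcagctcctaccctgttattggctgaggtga
Mcm7, chr5:138171884-138172133, minus strand: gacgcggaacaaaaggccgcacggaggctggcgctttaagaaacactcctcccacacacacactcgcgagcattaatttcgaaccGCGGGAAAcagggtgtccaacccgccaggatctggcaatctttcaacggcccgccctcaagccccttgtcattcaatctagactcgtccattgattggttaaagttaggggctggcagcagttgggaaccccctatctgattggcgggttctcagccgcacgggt
Cdc6, chr11:98907901-98908150, plus strand: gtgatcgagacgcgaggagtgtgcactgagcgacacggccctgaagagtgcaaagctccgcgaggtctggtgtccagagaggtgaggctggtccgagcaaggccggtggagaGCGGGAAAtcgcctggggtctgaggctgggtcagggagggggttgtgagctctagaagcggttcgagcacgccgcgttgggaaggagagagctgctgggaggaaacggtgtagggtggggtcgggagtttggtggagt
The match lay 149 bases before the start in Mcm5, 165 in Mcm7 and 138 in Cdc6, and Mcm6 held matches at 110 and 47 bases. Mcm6, another helicase subunit, read 12.31 to 13.04 on T-ALL arrays and 11.71, 11.83, 12.88 and 11.13 on grafts 1 to 4. Mcm7, of the same ring, read 10.95 to 11.64 on T-ALL arrays and 10.84, 10.65, 11.30 and 10.31 on grafts 1 to 4. Cdc6, which loads the helicase, read 10.32 to 10.76 on T-ALL arrays and 9.81, 9.63, 10.76 and 9.24 on grafts 1 to 4. In each of the 4, grafts 1, 2 and 4 were below every T-ALL array, and graft 3 was within or above the T-ALL range. Without graft 3 the rises were 0.99 for Mcm6, 0.74 for Mcm7 and 0.96 for Cdc6. The letters also occurred in 3 of 16 MYC target and ribosome biogenesis genes with an entry (Ncl, Nolc1 and Nop58). In the serine, folate and nucleotide synthesis list they were in 1 of 16 (Ppat). Among the 27 genes that changed with all 4 grafts they were in 1 of 21 with an entry (Fgf13, which fell). The letters were in 0 of 10 Notch and 0 of 10 TCR-induced genes with an entry. They describe these windows only, and the lists were chosen with expression values known.

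Genes of growth and biosynthesis shared this pattern. In the serine, folate and nucleotide synthesis list 18 of 18 members were higher in T-ALL (median 0.69, and 0.90 without graft 3), and 11 rose without graft 3 and 1 with grafts 1 and 4 averaged. Phgdh, the first enzyme of serine synthesis, was at 9.46 to 10.83 on T-ALL arrays and 8.43, 9.05, 9.35 and 8.71 on grafts 1 to 4, and rose by 1.48 without graft 3. Psat1, the next enzyme, rose by 1.54, and the serine hydroxymethyltransferases Shmt1 and Shmt2 by 1.63 and 1.45. None of these enzymes passed with grafts 1 and 4 averaged (limma adjusted p = 0.0588 to 0.109). In the MYC target and ribosome biogenesis list 20 of 21 were higher (median 0.66, and 0.90 without graft 3), with 11 rises without graft 3 and 0 with grafts 1 and 4 averaged. Srm, spermidine synthase, was at 10.13 to 11.65 on T-ALL arrays and 8.83, 9.65, 11.73 and 8.84 on grafts 1 to 4, so that graft 3 exceeded every T-ALL array. Without graft 3 Srm rose by 1.71, Cad, of pyrimidine synthesis, by 1.39, Nop58, a nucleolar protein, by 1.31 and Odc1, ornithine decarboxylase, by 1.29.

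Mitosis genes were higher in 19 of 22 members (median 0.37, and 0.58 without graft 3), and 7 rose without graft 3 and 2 with grafts 1 and 4 averaged. Plk1 and Aurkb, mitotic kinases, rose by 0.87 and 0.84, Cdk1 by 0.86 and Mad2l1, of the spindle checkpoint, by 0.84. Plk1 and Cdk1 passed with grafts 1 and 4 averaged, and Aurkb and Mad2l1 did not (limma adjusted p = 0.112 and 0.0738). Mki67, a marker of cycling cells, did not pass. It spread widely among leukaemias, at 9.59 to 12.67 on T-ALL arrays, with a median of 11.11, against 9.70, 9.64, 12.54 and 9.72 on grafts 1 to 4. T-ALL 1 and 4 read 9.59 and 9.77, near grafts 1, 2 and 4. Chaperone genes were higher in 16 of 17 (median 0.42, and 0.63 without graft 3), with 6 rises without graft 3 and 1 with grafts 1 and 4 averaged. Bag3, a co-chaperone, rose by 1.92, Hspd1 and Hspa9, of mitochondrial protein folding, by 1.06 and 0.91, and Cct3, of the cytosolic folding ring, by 0.82. None of these chaperone genes passed with grafts 1 and 4 averaged (limma adjusted p = 0.0687 to 0.216).

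Metabolic lists had smaller medians. The cholesterol list had 12 of 15 members higher (median 0.27, and 0.36 without graft 3). It had 3 rises without graft 3 (20%, against 10.9% over all genes) and 1 with grafts 1 and 4 averaged. Sqle, squalene epoxidase, rose by 2.05, Cyp51, which demethylates lanosterol, by 1.04 and Fdps, which makes farnesyl diphosphate, by 1.03. Of these only Sqle passed with grafts 1 and 4 averaged (limma adjusted p = 0.0178). In Fdps graft 3, at 11.16, lay close to the other grafts, at 10.80, 11.06 and 10.98. The glycolysis and hypoxia list had 11 of 19 higher (median 0.29, and 0.35 without graft 3), with 5 rises, among them Tpi1 (1.46), Pkm (0.97) and Pgam1 (0.83), and a fall of 1.18 in Pdk1, which restrains entry of pyruvate into the citric acid cycle. With grafts 1 and 4 averaged 1 of its members rose. Oxidative phosphorylation subunits were higher in 25 of 29 (median 0.22) with 2 rises without graft 3 (Ndufa10 by 0.89 and Cyc1 by 0.79). Proteasome subunits were higher in 25 of 27 (0.29) with 2 rises (Psmd1 by 0.70 and Psmd12 by 0.43), and cytosolic ribosomal proteins in 20 of 24 (0.10) with 2 (Rplp0 by 1.59 and Rpl30 by 0.94). The called share of these lists, 6.90%, 7.41% and 8.33%, was below the 10.9% over all genes. With grafts 1 and 4 averaged 2, 0 and 0 of their members rose.

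**Figure D3:**
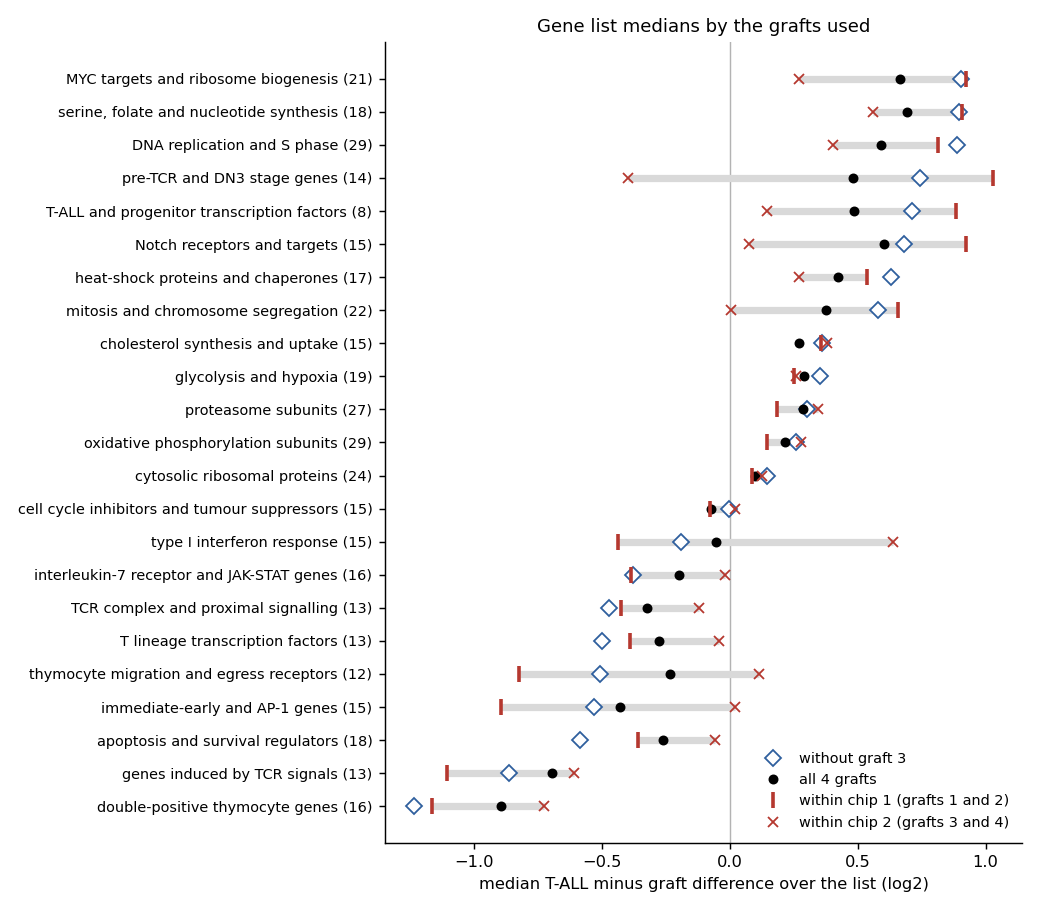
Median T-ALL minus graft difference (log2, horizontal axis) over the measured members of each list (rows, number in brackets) with all 4 grafts, without graft 3, and within each chip, with a grey bar joining the values within chip 1 and chip 2. Replication, MYC target and serine lists have positive medians and the TCR-induced and double-positive lists negative ones in all 4 versions, while the Notch and mitosis medians lie near 0 and the pre-TCR median below 0 within chip 2.

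Genes induced by TCR signals were lower in T-ALL. With all 4 grafts 13 of 13 members were lower (median -0.69) and Tagap fell. Without graft 3 the median was -0.86, 9 of 13 fell and none rose, and with grafts 1 and 4 averaged 5 fell. Egr2, a transcription factor switched on by TCR signals, read 6.90 to 7.66 on T-ALL arrays, with a median of 7.17, against 9.88, 10.13, 7.36 and 9.85 on grafts 1 to 4. Grafts 1, 2 and 4 lay close together above all leukaemias, and graft 3 lay within the T-ALL range. Egr2 fell by 2.74 without graft 3 (SE 0.18, adjusted p = 2.3e-05), and its difference was -2.09 with all 4 grafts (adjusted p = 0.0717). Cd69, an early activation antigen that holds thymocytes in the thymus, was at 7.10 to 9.66 on T-ALL arrays and 11.70, 11.46, 7.64 and 11.72 on grafts 1 to 4. Without graft 3 Cd69 fell by 3.13. The related transcription factor Egr1 fell by 3.02, and Egr3 fell by 1.76. Of the 7 T-ALL arrays 1 was above background for Egr3. With grafts 1 and 4 averaged Egr2 and Egr3 passed, and Cd69 and Egr1 did not (limma adjusted p = 0.0553 for each).

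The immediate-early and AP-1 list had 12 of 15 members lower (median -0.43, and -0.53 without graft 3). Jdp2 rose with all 4 grafts. Without graft 3 it rose and 4 members fell, 3 of them also with grafts 1 and 4 averaged. Zfp36, which speeds decay of messenger RNA, was at 9.65 to 9.88 on T-ALL arrays and 11.66, 11.56, 10.04 and 11.63 on grafts 1 to 4, and fell by 1.84 without graft 3 (SE 0.12, adjusted p = 2.3e-05). Fos, a subunit of AP-1, was at 6.90 to 7.46 on T-ALL arrays and 10.23, 8.04, 7.26 and 8.14 on grafts 1 to 4, and fell by 1.65. Of the 7 T-ALL arrays 4 were above background for Fos. Junb, another subunit, was at 8.68 to 9.44 on T-ALL arrays and 11.22, 10.40, 9.04 and 9.79 on grafts 1 to 4, and fell by 1.51.

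The largest falls without graft 3 were in TCR beta variable segments. Trbv13-1 read 6.79 to 8.36 on T-ALL arrays, with a median of 6.95, against 12.77, 12.58, 6.97 and 13.21 on grafts 1 to 4. Trbv1 read 6.86 to 7.67 on T-ALL arrays, with a median of 7.14, against 10.87, 10.02, 6.95 and 11.34 on grafts 1 to 4. Both were bright on grafts 1, 2 and 4, dim on every T-ALL array, and below background on graft 3. Of the 7 T-ALL arrays 3 were above background for Trbv13-1 and 4 for Trbv1. The differences without graft 3 were -5.43 (SE 0.38, adjusted p = 3.1e-05) and -3.48 (SE 0.29, adjusted p = 9.9e-05), and with all 4 grafts neither passed (adjusted p = 0.0839 and 0.0867). Variable segments share sequence, so a probe can read more than 1 segment, and probes of 1 segment disagreed. For Trbv13-2 one probe was at 13.51 to 14.96 on T-ALL arrays and 14.84, 14.91, 14.82 and 14.96 on grafts 1 to 4, and the other at 6.91 to 10.25 on T-ALL arrays and 12.70, 12.40, 9.11 and 13.21 on grafts 1 to 4. Of 18 probes for TCR alpha variable segments, 2 to 9 exceeded background on T-ALL arrays, and 13, 11, 3 and 13 on grafts 1 to 4. Trgv4, a gamma variable segment, lay the other way, at 9.64 to 12.22 on T-ALL 1 to 6, 7.72 on T-ALL 7, and 7.96, 8.90, 11.11 and 7.77 on grafts 1 to 4. Trbv13-2, Trgv4 and the alpha segments were chosen after their values were seen and were given no test.

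**Figure D4:**
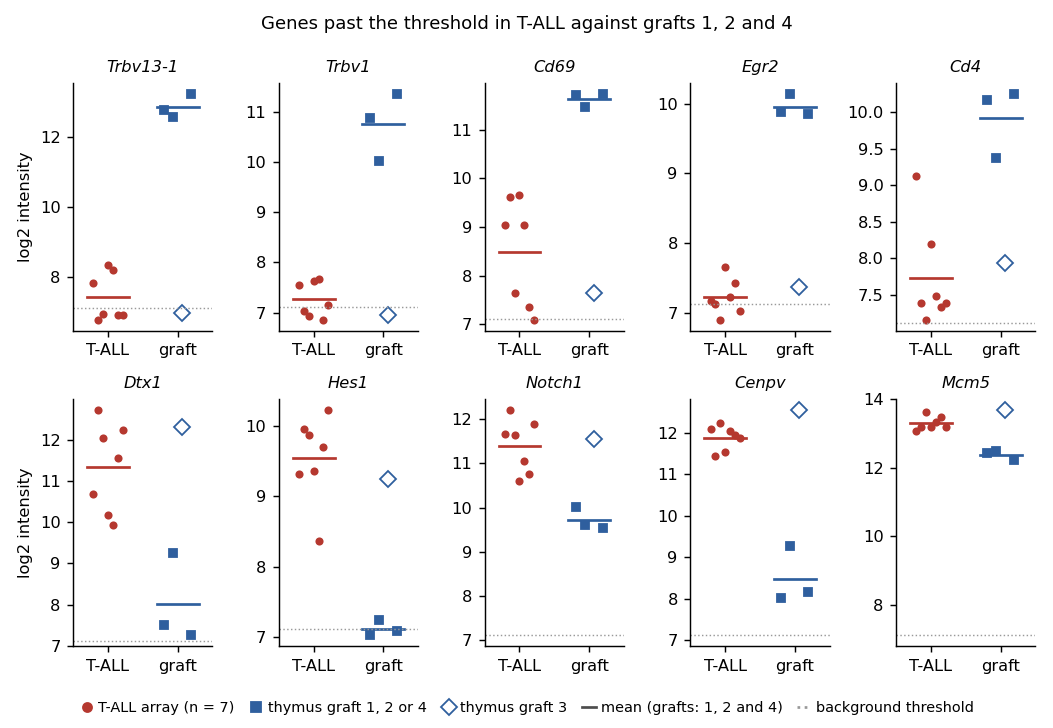
Log2 intensity (vertical axes) of 10 genes that changed without graft 3, with T-ALL arrays as circles at the left of each panel and grafts at the right. The open diamond is graft 3, bars are means (grafts without graft 3), and the dotted line is the background threshold of 7.12. Graft 3 lies within the T-ALL range or, in Cenpv and Mcm5, above it, and grafts 1, 2 and 4 do not overlap with T-ALL.

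Double-positive thymocyte genes were lower in T-ALL in 14 of 16 members with all 4 grafts (median -0.89) and none passed. Without graft 3 the median was -1.23, 7 of 16 fell and none rose, and with grafts 1 and 4 averaged 2 fell. Cd4, a coreceptor, was at 7.16 to 9.13 on T-ALL arrays and 10.16, 9.37, 7.94 and 10.24 on grafts 1 to 4. T-ALL 1, at 9.13, was the leukaemia nearest to the grafts. Cd4 fell by 2.20 without graft 3 (SE 0.40, adjusted p = 0.00853). Plxnd1, a semaphorin receptor that guides thymocytes, fell by 2.58, Slamf1, a T cell surface receptor, by 1.82 and Rag2, which cuts antigen receptor loci together with Rag1, by 1.60. With grafts 1 and 4 averaged Plxnd1 passed (limma adjusted p = 0.0396), and Cd4, Slamf1 and Rag2 did not (0.0627, 0.0994 and 0.117). Rag1 itself was at 9.63 to 12.31 on T-ALL arrays and 12.44, 12.24, 10.62 and 12.58 on grafts 1 to 4, a difference of -1.73 without graft 3 (adjusted p = 0.0627). Cd8b1, the other coreceptor chain, was bright throughout, at 13.03 to 14.85 on T-ALL arrays and 14.96, 14.94, 14.23 and 14.90 on grafts 1 to 4 (difference -0.92 without graft 3, adjusted p = 0.112). In bulk samples fewer cells of a type and less RNA per cell cannot be told apart.

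TCR complex genes were lower in 11 of 13 members (median -0.32, and -0.47 without graft 3), with 5 falls without graft 3 and 1 with grafts 1 and 4 averaged. Cd6, a costimulatory receptor, was at 10.94 to 12.35 on T-ALL arrays and 13.90, 13.42, 11.40 and 13.62 on grafts 1 to 4, and fell by 1.82. Cd247, the zeta chain, fell by 1.42, Cd3e by 0.86, Cd3g by 0.68 and Cd3d by 0.48. With grafts 1 and 4 averaged Cd6 passed, and Cd247 and the Cd3 chains did not (limma adjusted p = 0.0787 to 0.190). T lineage transcription factors were lower in 11 of 13 (median -0.28, and -0.50 without graft 3). Of these 3 fell without graft 3 and 1 with grafts 1 and 4 averaged. Bcl11b, which fixes T cell commitment, was at 12.39 to 12.92 on T-ALL arrays and 14.05, 13.32, 12.48 and 13.57 on grafts 1 to 4, and fell by 1.01. Ets2 and Ets1 fell by 1.24 and 1.01. Bcl11b passed with grafts 1 and 4 averaged, and Ets2 and Ets1 did not (limma adjusted p = 0.175 and 0.0718).

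Notch genes split the grafts. With all 4 grafts 12 of 15 members of the Notch list were higher in T-ALL (median 0.60) and none passed. Without graft 3, 10 of 15 were higher (median 0.68) and 4 rose, and with grafts 1 and 4 averaged 1 did. Dtx1, a Notch target and regulator, read 9.93 to 12.72 on T-ALL arrays, with a median of 11.56, against 7.51, 9.26, 12.32 and 7.26 on grafts 1 to 4. Hes1, a target that represses transcription, read 8.36 to 10.22 on T-ALL arrays, with a median of 9.70, against 7.03, 7.25, 9.24 and 7.09 on grafts 1 to 4. The receptor Notch1 read 10.61 to 12.20 on T-ALL arrays, with a median of 11.63, against 10.02, 9.61, 11.54 and 9.54 on grafts 1 to 4. In all 3 graft 3 lay inside the T-ALL range, and the other grafts lay below every T-ALL array. Without graft 3 Dtx1 rose by 3.32 (SE 0.64, adjusted p = 0.0101), Hes1 by 2.41, Notch1 by 1.67 and Myc by 0.94. With grafts 1 and 4 averaged Hes1 passed (limma adjusted p = 0.0245), and Dtx1, Notch1 and Myc did not (0.0751, 0.0591 and 0.162). Notch3, a target as well as a receptor, was at 8.48 to 11.71 on T-ALL arrays and 8.89, 8.38, 11.25 and 8.69 on grafts 1 to 4 (difference 1.62 without graft 3, adjusted p = 0.0850). The letters GTGGGAA of the Notch partner RBPJ, on either strand, were in 0 of the 10 list members with a promoter entry, and in 6.18% of genes. Of the 15 members the others, Hes1 among them, had no entry and were not searched. The same letters were in 3 of 25 replication genes and 2 of 16 MYC target genes with an entry. In the serine list they were in 1 of 16, and in the TCR-induced list in 1 of 10.

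The pre-TCR and double-negative stage list held both directions, with 9 of 14 higher (median 0.48, and 0.74 without graft 3). Without graft 3, 2 rose (Dtx1 and Hes1) and 5 fell, among them Egr1, Egr2 and Egr3. With grafts 1 and 4 averaged 1 rose (Hes1) and 3 fell. Ptcra, the pre-TCR alpha chain, was at 7.67 to 9.86 on T-ALL arrays and 8.24, 8.32, 9.49 and 8.52 on grafts 1 to 4, with overlap. Kit, the receptor of early progenitors, was at 7.66 to 10.58 on T-ALL arrays and 7.72, 8.18, 9.11 and 7.75 on grafts 1 to 4 (adjusted p = 0.272, and 0.126 without graft 3). The T-ALL and progenitor transcription factors were higher in 7 of 8 (median 0.49, and 0.71 without graft 3) and none passed in either comparison. Tal1, an erythroid and leukaemia factor, was at 6.60 to 10.64 on T-ALL arrays and 6.58, 7.47, 9.32 and 6.62 on grafts 1 to 4, and was above background on 4 T-ALL arrays and 2 grafts. Lmo2 and Lyl1, partners in the same complexes, differed by 1.05 and 0.85 with all 4 grafts (adjusted p = 0.533 and 0.188).

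Migration receptors were lower in 9 of 12 (median -0.23, and -0.51 without graft 3), with a fall of Cytip, and 3 falls without graft 3 (Plxnd1, Cytip and Selplg, a selectin ligand, by 0.79), 2 of them with grafts 1 and 4 averaged. Ccr7, a chemokine receptor of mature thymocytes, was highest on graft 2, at 7.28 to 8.04 on T-ALL arrays and 7.34, 9.55, 7.01 and 7.46 on grafts 1 to 4. The interleukin-7 and JAK-STAT list had 11 of 16 lower (median -0.20, and -0.38 without graft 3). Without graft 3 it had 3 falls (18.8%, against 10.9% over all genes), and 0 with grafts 1 and 4 averaged. The falls were in Il2rg, a cytokine receptor chain (1.14), Mcl1, a survival factor (0.97), and Tyk2, a kinase (0.67). Il7r, the receptor itself, was at 7.96 to 9.64 on T-ALL arrays and 7.42, 10.08, 9.67 and 7.44 on grafts 1 to 4. Apoptosis regulators were lower in 13 of 18 (median -0.26, and -0.58 without graft 3), with 5 falls and 1 rise without graft 3, and 1 fall with grafts 1 and 4 averaged. Fas, a death receptor, fell by 2.13 and Bcl2l1, an inhibitor of apoptosis, by 1.09. Neither passed with grafts 1 and 4 averaged (limma adjusted p = 0.128 and 0.120).

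Cell cycle inhibitors and tumour suppressors were lower in 8 of 15 (median -0.07). Without graft 3, 3 fell (20%, against 10.9% over all genes), and 0 did with grafts 1 and 4 averaged. Btg1, which restrains division, fell by 1.13, Mdm2, the p53 antagonist, by 0.83 and Cdkn1b, a kinase inhibitor, by 0.62. Cdkn2a, often deleted in T-ALL, was at 7.38 to 8.45 on T-ALL arrays and 7.10, 7.41, 7.32 and 7.27 on grafts 1 to 4 (difference 0.58, adjusted p = 0.127). Cdkn1a, a p53 target, was at 7.28 to 8.38 on T-ALL arrays and 7.46, 8.13, 7.58 and 7.53 on grafts 1 to 4 (difference 0.37, adjusted p = 0.389). The interferon list was lower in 8 of 15 (median -0.05). Its mean was 8.50 to 9.34 on T-ALL arrays and 8.59, 9.81, 8.47 and 8.52 on grafts 1 to 4. Stat2 alone passed without graft 3 (6.67% of the list, below the 10.9% over all genes), with a fall of 0.70. With grafts 1 and 4 averaged 0 members passed.

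Other large rises without graft 3 lay outside the lists above. Cenpv, a centromere protein, read 11.45 to 12.24 on T-ALL arrays, with a median of 11.95, against 8.02, 9.26, 12.55 and 8.15 on grafts 1 to 4, and rose by 3.41 (SE 0.27, adjusted p = 8.6e-05). Prmt7, an arginine methyltransferase, was at 11.90 to 13.54 on T-ALL arrays and 10.03, 10.15, 12.81 and 9.82 on grafts 1 to 4, and rose by 2.66. Egfl7 and Esm1, secreted proteins known from endothelium, rose by 2.63 and 2.78. Esm1 was not above background on grafts 1, 2 and 4 and was at least 5.90-fold higher in T-ALL. Tmem121, a membrane protein, rose by 3.14 and Wdr25, a WD repeat protein, by 2.41. In these 6 genes graft 3 was within or above the T-ALL range. Aif1l, an actin-binding protein, differed from them. It rose by 2.73, and graft 3, at 7.09, lay with the other grafts, at 6.86, 7.39 and 6.93. Large falls outside the lists were in Dnajc6, which uncoats clathrin vesicles (3.15), and Wdr78, of cilia (3.00). With grafts 1 and 4 averaged, Cenpv, Prmt7, Egfl7, Esm1 and Tmem121 still passed, and Wdr25, Aif1l, Dnajc6 and Wdr78 did not (limma adjusted p = 0.0687, 0.140, 0.119 and 0.0840).

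Genes of other cell types moved with some of the same arrays. The erythroid list was higher in T-ALL in 15 of 15 members (median 0.94, and 1.41 without graft 3). Without graft 3, 2 members rose (13.3%, near the 10.9% over all genes), Hbb-b1 by 3.60 and Hba-a1 by 3.43. The list mean was 8.35 to 11.65 on T-ALL arrays and 7.42, 9.49, 10.65 and 7.47 on grafts 1 to 4. Alas2, of haem synthesis, was not above background on grafts 1 and 4. The macrophage list was higher in 19 of 20 (median 0.69, and 1.29 without graft 3). Without graft 3, 4 members rose (20%), Slc40a1 by 2.93, C1qb by 2.79, Spic by 2.11 and Cd68 by 1.12. The list mean was 8.41 to 9.89 on T-ALL arrays and 7.00, 9.08, 10.31 and 6.99 on grafts 1 to 4. C1qa, C1qb, Csf1r, Slc40a1 and Spic were not above background on grafts 1 and 4. With dimmer values set to the threshold, Slc40a1 rose 6.68-fold, C1qb 6.11-fold and Spic 3.42-fold without graft 3. With grafts 1 and 4 averaged 0 erythroid and 0 macrophage members passed. Graft 2 had both kinds of RNA, and its replication mean, 10.27, was near the 10.32 and 10.12 of grafts 1 and 4. The part of these cells in the differences above was not tested.

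Further cell types were uneven as well, and of the following lists Fbln1, of the collagen and fibroblast list, was the 1 member past the threshold with all 4 grafts. That list had its lowest leukaemia means on T-ALL 1, 4 and 5 (7.964, 8.015 and 7.782), where Fbln1 read 11.33, 12.21 and 12.10. Neutrophil granule genes were higher in 14 of 14 (median 0.56), and their mean was 6.93 to 11.21 on T-ALL arrays and 6.82, 10.28, 8.46 and 6.81 on grafts 1 to 4. Platelet genes were higher in 11 of 11 (0.54), MHC class II and dendritic cell genes in 9 of 11 (0.25), collagen and fibroblast genes in 14 of 18 (0.27), and endothelial genes in 9 of 11 (0.16). Without graft 3, Fbln1 rose and Thy1 fell (by 0.28) in the fibroblast list, Egfl7 rose in the endothelial list, and Cd79b, a B cell receptor chain, fell by 1.77. The called shares of the fibroblast, endothelial and B cell lists, 11.1%, 9.09% and 11.1%, were near the 10.9% over all genes. B cell and plasma cell genes were higher in 4 of 9 (-0.02), and some were uneven among arrays. The immunoglobulin light chain gene Igkc was at 7.14 to 14.98 on T-ALL arrays and 8.76, 13.15, 15.19 and 7.84 on grafts 1 to 4. Mzb1, of plasma cells, was at 6.93 to 12.49 on T-ALL arrays and 7.43, 8.28, 10.69 and 7.52 on grafts 1 to 4, and the B cell antigen Ms4a1 at 7.02 to 7.37 on T-ALL arrays and 7.09, 7.26, 7.25 and 7.03 on grafts 1 to 4. Thymic epithelium genes were higher in 8 of 8 (0.19), kidney tubule genes in 4 of 7 (0.10), pancreatic acinar genes in 3 of 4 (0.12) and cytotoxic genes in 6 of 9 (0.04). The kidney tubule mean was 7.76 to 9.06 on T-ALL arrays and 7.06, 9.96, 7.94 and 7.21 on grafts 1 to 4. Graft 2 was the graft with the highest mean of the kidney, class II, interferon, thymic epithelium, neutrophil and cytotoxic lists. The part of these cells in the differences was not tested either.

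**Figure D5:**
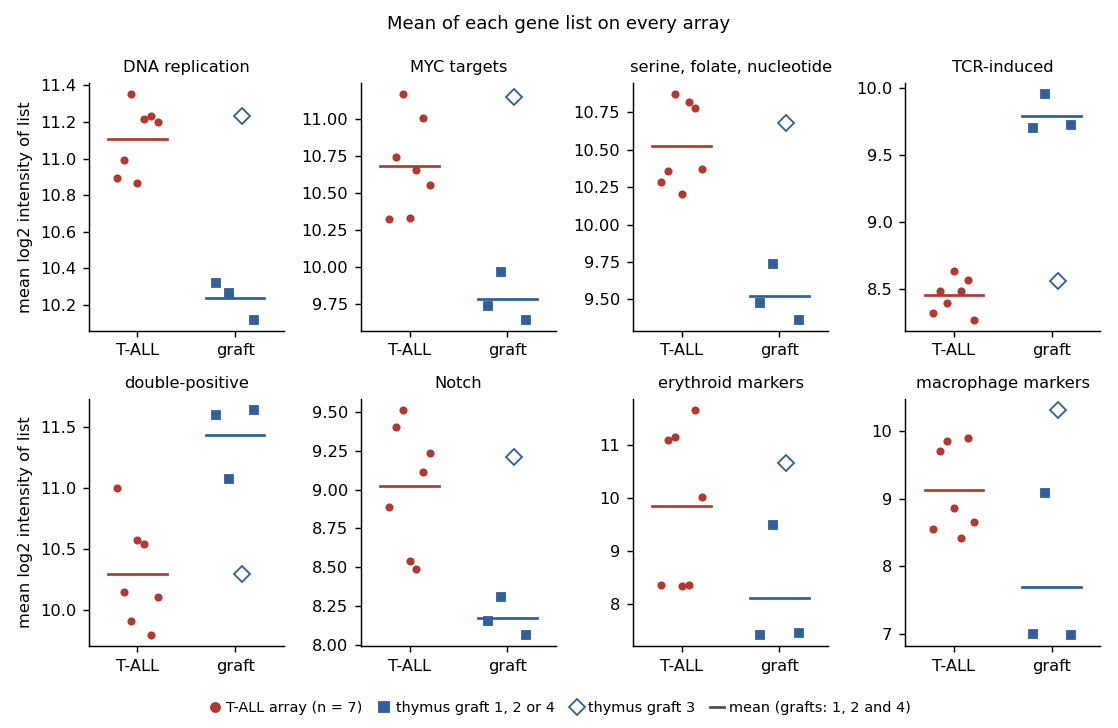
Mean log2 intensity (vertical axes) of the measured members of 8 lists on every array, with T-ALL arrays as circles at the left and grafts at the right. The open diamond is graft 3, and bars are means (grafts without graft 3). Graft 3 lies in the T-ALL range in all 8 lists but the macrophage one, where it is higher, and graft 2 is close to grafts 1 and 4 in replication genes and above them in erythroid and macrophage genes.

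Sex-linked genes differed between arrays too. Xist, which silences the inactive X chromosome, read 6.92 to 7.93 on T-ALL arrays and 8.99, 8.73, 7.05 and 9.05 on grafts 1 to 4, and fell by 1.55 without graft 3 (adjusted p = 0.00322). The Y-linked Eif2s3y was at 9.36 and 9.79 on T-ALL 2 and 7 and at 7.48 on graft 3, the highest of the other arrays. The part of sex in the differences was not tested.

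Within chips the comparison had fewer arrays. On chip 1, T-ALL 1 to 3 against grafts 1 and 2, limma called 0 genes (0% of those tested; 954 at an unadjusted p below 0.05). On chip 2, T-ALL 4 to 6 against grafts 3 and 4, it called 0 (0%; 768 at an unadjusted p below 0.05). Directions of the leading genes were the same on both chips, which their lack of overlap between T-ALL arrays and grafts fixed in advance. Fgf13 differed by -3.57 on chip 1 and -2.85 on chip 2, Smoc1 by -3.01 and -1.84, Hmgn3 by -2.42 and -1.97, Fbln1 by 3.49 and 2.81, and Jdp2 by 1.40 and 1.83. The replication list had medians of 0.81 on chip 1 and 0.41 on chip 2, and the TCR-induced list -1.11 and -0.61. The Notch list had 0.92 and 0.07, and the mitosis list 0.66 and 0.01. Chip 2 holds graft 3. Notch3 differed by 2.10 on chip 1 and -0.29 on chip 2. The pre-TCR list had medians of opposite sign, 1.03 on chip 1 and -0.40 on chip 2. So had the interferon list (-0.44 and 0.64), the migration list (-0.82 and 0.11) and the AP-1 list (-0.895 and 0.022). Cell cycle inhibitors (-0.08 and 0.02) also changed sign. Among other cell types the neutrophil, B cell, platelet, thymic epithelium, kidney, fibroblast, endothelial and cytotoxic medians did as well. The test of the difference between the chips called 0 genes in limma (181 at an unadjusted p below 0.05).

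Graft 3 can be placed on the 1149 genes chosen without it. It was nearer the T-ALL mean than the mean of the other grafts in 1001 of them (87.1%), in 434 of the 509 higher and 567 of the 640 lower genes. It lay within the range of the 7 T-ALL arrays in 853 and within that of grafts 1, 2 and 4 in 101. Its median position was 0.958 on a scale with the mean of the other grafts at 0 and that of T-ALL at 1. For the 24 replication genes that rose the position was 1.17, and 23 were nearer T-ALL. For the 9 fallen TCR-induced genes it was 0.781, and 9 were nearer T-ALL. Each graft in turn was also left out and the 1000 genes of smallest p were read on it, a step added after the values were seen. Graft 3 was nearer T-ALL in 87.7% of its genes, graft 2 in 45.1%, graft 4 in 7.70% and graft 1 in 4.00%. Either of grafts 1 and 4 remained in the fit when the other was left out.

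Among the 1149 genes were 16 that differed at least 2-fold and in which graft 3 was less than 0.25 of the way to T-ALL. They were singled out after their values were seen. Fgf13 and Samd9l were among the 4 lower ones, and Jdp2, Aif1l, Sumo3, Etv5, a transcription factor, Tuba8, an alpha tubulin, and Ppp1r1b, a phosphatase inhibitor, among the 12 higher ones. Without graft 3 the difference was 1.71 for Tuba8, at 7.49 to 10.25 on T-ALL arrays and 7.26, 7.25, 7.32 and 7.17 on grafts 1 to 4. It was 1.58 for Etv5, at 7.59 to 10.01 on T-ALL arrays and 7.25, 7.26, 7.32 and 7.32 on grafts 1 to 4, and 1.55 for Ppp1r1b, at 8.30 to 10.36 on T-ALL arrays and 7.96, 8.12, 8.12 and 8.13 on grafts 1 to 4.

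The leukaemias also differed among themselves. T-ALL 1, 4 and 5 correlated with each other at 0.965 to 0.976 and T-ALL 3 and 6 at 0.968, while T-ALL 1 and 6 correlated at 0.912. T-ALL 1, 4 and 5 had the lowest erythroid means, at 8.36, 8.35 and 8.37, against 11.10, 11.15, 11.65 and 10.03 on T-ALL 2, 3, 6 and 7. They also had the highest double-positive means, at 10.99, 10.57 and 10.54, against 10.15, 9.91, 9.79 and 10.10. In the Notch list T-ALL 4 and 5 were the lowest leukaemias, at 8.54 and 8.48, and lay above grafts 1, 2 and 4, at 8.15, 8.31 and 8.06.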

How the data were processed

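The log2 values were those of the deposited matrix of 20 Illumina arrays and 46089 probes, which were quantile normalised before deposit; this was read from the values, whose sorted levels differed by at most 0.01 between arrays. Per the labels' protocols, RNA was extracted with RNAzol B and labelled as biotinylated cRNA. The sources used here name no software. Another table held 20 value columns that matched no label, and it was not used here.

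Symbols came from the platform annotation, brought up to date through a RefSeq gene table; 35667 probes had 1 symbol, and 10422 had none and were left out. Background was the mode of all values (6.78) plus 3 SD of the values below it. Genes above it on at least 4 of the 11 arrays were tested in limma 3.58.1 (R 4.3.3; intensity trend, Benjamini-Hochberg adjustment over 10533 genes). The fit held the 11 arrays, since an earlier account of these data found content at odds with labels among the others; a fit with all 20 was an alternative. Within-chip differences came from a fit with a mean for each label on each chip. The number of arrays limits precision. A fold given as at least sets values below the threshold to it. The test was tried on simulated data. It recovered 67 of 100 changes of 1 log2 unit and 95 of 100 of 2 units, with 7 false calls. Without graft 3 it recovered 60 and 94, with 13 false calls. The simulated arrays were drawn independently, so none were as alike as grafts 1 and 4, and the trial cannot speak for calls that rest on that pair.

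The comparison, the 35 gene lists and the rule for named genes were chosen with earlier results of these data known. The rule took the largest changes of each comparison, up to 4 members of each list past the threshold or else its 2 brightest, and a fixed set, of which Ccr9, Nr4a1 and S1pr1 did not enter the test and 1 gene is not reported here. A gene can be in several lists.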

Additional observations from a re-analysis of the deposited data

Results flagged for a closer look

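One array stood far from the others of its group in 38 of 318 sets of values (124 genes and 35 list means tested in both groups), by the gap to its nearest neighbour over the range of the group. Chance flags about 1 in 20 sets, a rate that does not hold for these, since many of the genes were chosen by their differences without graft 3 and grafts 1 and 4 read almost the same. Graft 3 was the outlying array in 29 of the 38, and the comparisons are given with and without it. No cause was tested. Values are log2 intensities, with the nearest array of the group beside each.

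Among genes, graft 3 was the highest graft in Fbln1 (10.89, nearest 8.18), Gm8416 (8.71, nearest 8.37), Hes1 (9.24, nearest 7.25), Myc (8.40, nearest 7.40), Mki67 (12.54, nearest 9.72), Eif2s3y (7.48, nearest 6.68), Esm1 (9.37, nearest 7.02), Prmt7 (12.81, nearest 10.15), Wdr25 (10.49, nearest 7.41), Mcm10 (12.02, nearest 10.27), Tk1 (11.80, nearest 10.50), Cad (10.21, nearest 8.16), Sqle (10.77, nearest 9.17). It was the lowest graft in Zfp518b (7.28, nearest 8.10), Cd8b1 (14.23, nearest 14.90), Egr2 (7.36, nearest 9.85), Xist (7.05, nearest 8.73), Trbv13-1 (6.97, nearest 12.58), Cd69 (7.64, nearest 11.46), Egr1 (10.99, nearest 12.85), Zfp36 (10.04, nearest 11.56), Tyk2 (8.98, nearest 9.67), Bcl2l1 (9.16, nearest 10.39), Fas (9.09, nearest 11.43), Cd79b (8.16, nearest 9.49). Among list means it was the highest graft in platelet and megakaryocyte markers (8.61, nearest 6.98), collagen and fibroblast markers (9.03, nearest 7.74), endothelial markers (8.70, nearest 7.44), and the lowest in TCR complex and proximal signalling (10.97, nearest 11.81).

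Other arrays stood apart in single sets. The highest of their group were Fgf13 on T-ALL 5 (9.01, nearest 7.53), Samd9l on T-ALL 4 (9.00, nearest 8.27), Egr3 on T-ALL 4 (7.96, nearest 7.02), Psat1 on T-ALL 5 (12.96, nearest 12.15), type I interferon response on graft 2 (9.81, nearest 8.59), thymic epithelium markers on graft 2 (8.20, nearest 7.51), pancreatic acinar markers on T-ALL 7 (8.49, nearest 7.68). The lowest were Rpa2 on T-ALL 2 (9.93, nearest 10.12), Tpi1 on T-ALL 2 (12.14, nearest 12.71). All but those of graft 2 were T-ALL arrays set against the other 6 leukaemias.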

How the results depend on the processing

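For the count of 27 genes, leaving out 1 array in turn gave 0 (without graft 1 or graft 4) to 1149 genes (without graft 3), with 15 without graft 2, 13, 12, 10 and 9 without T-ALL 4, 5, 6 and 7, and 23 to 31 without T-ALL 1, 2 or 3; 0 of the 27 passed in every such fit. It was 54 with all 20 arrays in the fit, 0 with chip as a fixed block, 13 with chip as a random block, 3226 with array weights, and 0 with grafts 1 and 4 averaged, an alternative chosen after seeing the data. Array weights were highest for the nearly identical grafts 1 and 4 (3.25 and 2.85) and lowest for graft 3 (0.332). The other filters, probe rules, scalings and moderations gave 18 to 33. None of the 27 changed direction where tested (17 of them with the filter of above background on all 11 arrays, all 27 otherwise). With arrays left out, grafts averaged or chip as a fixed block, their lack of overlap between the groups fixed this in advance. The count of 1149 without graft 3 was 622 with chip as a block and 190 with grafts 1 and 4 averaged. Leaving out a further array gave 175 (without graft 1) to 1331 (without graft 2), with 182 without graft 4, and 151 genes passed in every such fit. Of the 1149, 1 changed direction with the mean of probes. On chip 1, 4 genes passed with only its arrays in the fit, and 0 with any array left out. On chip 2, leaving out an array gave 0 to 1. Among single genes, Il7r had a difference of -0.30 with grafts 1 and 4 averaged, and -0.30 to 0.58 with an array left out. Ccr7 was at 0.017 with array weights, and -0.55 to 0.30 with an array left out. The cause of these shifts was not tested. No paired analysis was possible because the array numbers of T-ALL and grafts were given in accession order and pair no samples.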
